A study of Rattus norvegicus with 113 samples.

Results

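Gene expression in the hippocampus was compared between rats 2 weeks after parasagittal fluid percussion injury, a model of traumatic brain injury (TBI) in which a pulse of fluid strikes the exposed dura, and sham-injured rats at the same interval. The members were the arrays whose titles name hippocampus and the 2-week interval, 12 of the 113 samples of the series: 4 TBI, 4 sham and 4 naive, each from adult male Sprague-Dawley rats and each hybridised with 1 colour to the larger of the Agilent array designs used. The sham rats had the same isoflurane anesthesia, scalp incision and skull opening as the TBI rats but no fluid pulse, and the naive rats had neither anesthesia nor handling. The labels call the injury moderate and the study's methods call it severe, and which hemisphere each RNA came from was not given in the sources used here. According to the methods each group held 4 rats, so the spread between replicates was taken as that between animals.

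The hippocampus is damaged by this injury although it lies below the impact site. In injured brain tissue the resident macrophages, the microglia, and macrophages that enter from the blood take up debris, coat synapses and cells with complement proteins, and can display peptides to T cells on class II molecules of the major histocompatibility complex (MHC; named RT1 in the rat). RNA was taken from whole tissue, so more cells of a type and more RNA per cell cannot be told apart, nor can fewer cells and less RNA per cell.

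A level below is the log2 processed signal of a gene's brightest tested probe minus the median of its array, and a difference is TBI minus sham on that log2 scale with the standard error (SE) of the limma fit. A probe was tested when it was well above background on all 4 arrays of TBI or of sham, and called at an adjusted p under 0.05. Between 53.9 and 60.9% of probes were well above background on 11 of the arrays and 46.5% on sham replicate 3, so 4064 of the 24718 probes tested entered through the TBI arrays alone, 208 without sham replicate 3. The dissection matched its label: 16 of 18 hippocampus markers were higher in naive hippocampus than in naive cortex, with a median difference of 2.02, whereas 3 of 13 neocortex markers were. TBI and sham arrays lay on the same slide, in different rows, so slide row and injury cannot be told apart, and naive arrays lay on another slide, so slide and handling cannot be told apart there.

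Among genes called without overlap of TBI and sham, the class II genes Cd74, RT1-Da, RT1-Bb and RT1-Db1 had some of the largest rises. Clec7a, Cd22, F10, Ccl3, Cd68 and Ccl4 had the others, and the falls were many but small. At the probe level 256 probes were higher in TBI (1.04% of those tested) and 312 were lower (1.26%). These counts depended on the fit: 5 probes were called with only the TBI and sham arrays fitted, 24 with the replicate number as a block and 4 with no filter on dim probes. The balance of directions depended on the scale: with the 75th percentile of each array in place of the median, which moved the median difference of all probes from -0.11 to -0.01, 384 were higher and 70 lower. Of 11290 genes tested, 185 rose (1.64%) and 154 fell (1.36%); all 185 rises and 30 of the falls were also called with the 75th percentile. The rises ran from 0.34 to 3.86 and the falls from -0.24 to -0.90. The 4 TBI arrays lay above all 4 sham arrays for 399 genes (3.53%) and below them for 1935 (17.1%), and with the 75th percentile as scale for 800 (7.09%) and 746 (6.61%).

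**Figure D1:**
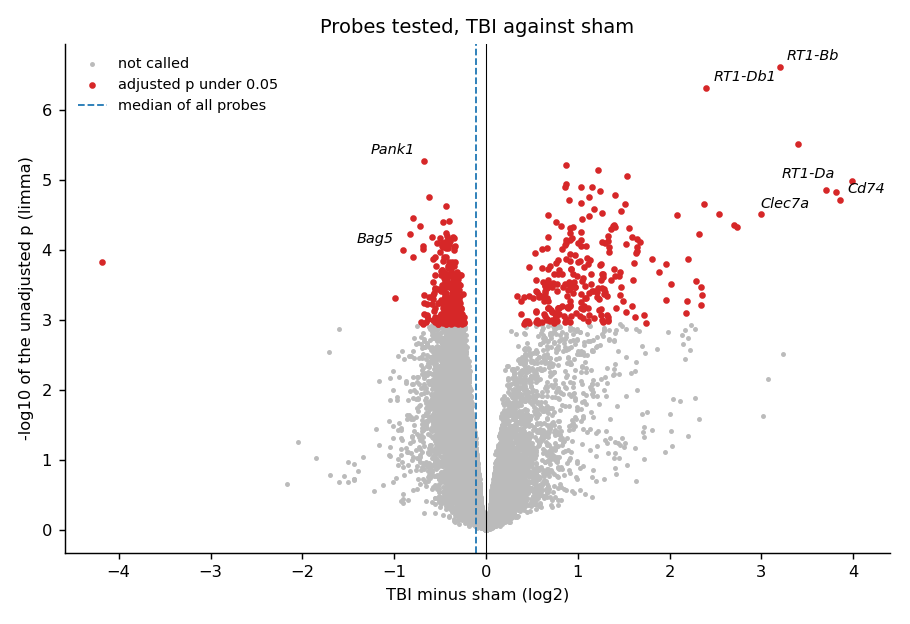
Difference between TBI and sham in log2 units (x axis) against -log10 of the unadjusted limma p (y axis) for the 24718 probes tested. Red points are the 256 higher and 312 lower probes called, the dashed line is the median of all probes at -0.11, and the called points on the right reach much further from it than nearly all of those on the left, except 1 probe without a gene name.

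The number of calls depended on TBI replicate 3. Without it 2 probes were called, RT1-Bb and RT1-Db1, with the smallest adjusted p at 0.0256 (limma), and 4203 probes had an unadjusted p under 0.05 against 6144 with it. All 568 called probes kept their direction and an unadjusted p under 0.05 (limma) without this array. The probes were chosen with it in the fit and the other arrays are shared, so this was close to fixed in advance. The median of the higher ones moved from 1.01 to 0.92 and that of the lower ones from -0.40 to -0.36. The loss was not peculiar to that array: 2 probes were called without TBI replicate 4, 3 without sham replicate 2, 4 without sham replicate 3, 44 without sham replicate 4, 154 without TBI replicate 1, 909 without sham replicate 1 and 1073 without TBI replicate 2. Over the called higher probes the median rise above the sham mean was 0.84, 0.57, 1.20 and 1.35 in TBI replicates 1 to 4. Over the called lower probes the median was -0.35, -0.34, -0.47 and -0.38. These probes were called from the same arrays, so how strongly each animal was affected was not tested. Every call below is the one made with all 12 arrays, and the difference without TBI replicate 3 is given for the genes described most fully.

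**Figure D2:**
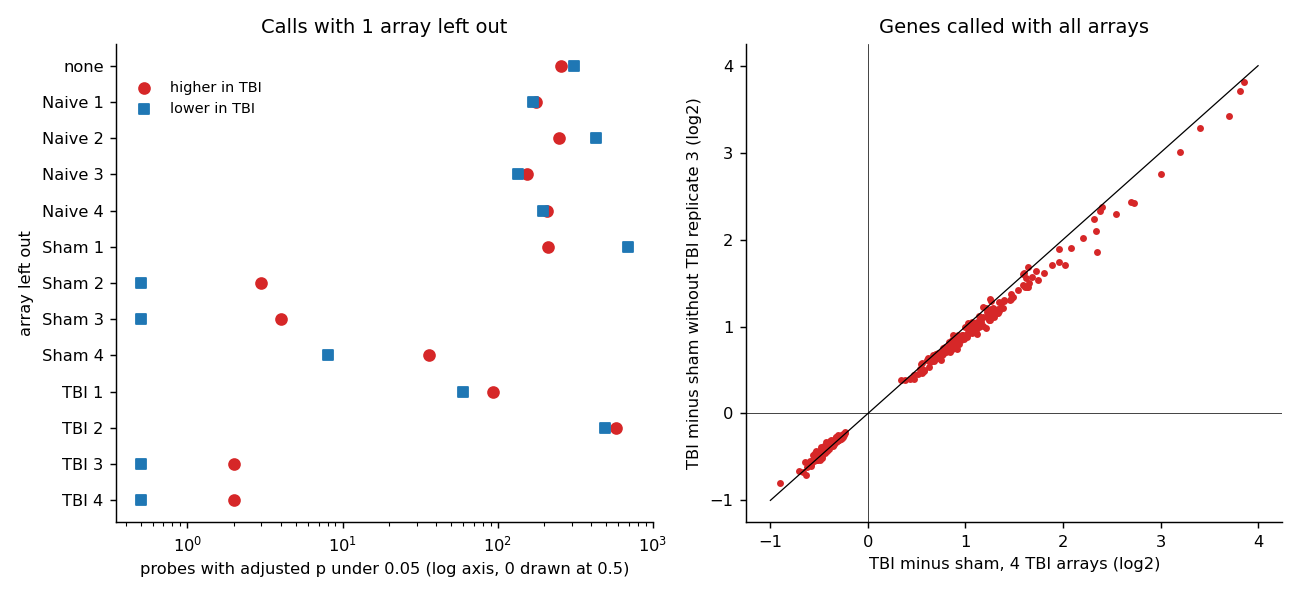
Left, number of probes called higher (red) and lower (blue) in TBI with no array or 1 array left out, on a log axis with 0 drawn at 0.5; the counts fell to 2 without TBI replicate 3 and rose to 1073 without TBI replicate 2. Right, difference of each called gene with 4 TBI arrays (x axis) and without TBI replicate 3 (y axis), both log2, with the line of equality; all points stay in their quadrant, most of the higher ones slightly under the line.

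Of all genes called, Cd74 and RT1-Da of the MHC class II list had the largest rises. Class II molecules consist of an alpha and a beta chain, encoded in the rat by RT1-Da and RT1-Db1 (the D molecule) and by RT1-Ba and RT1-Bb (the B molecule), and are guided to the endosome by the invariant chain Cd74. Promoters of these genes are known for the X and Y boxes, short elements bound by the RFX and NF-Y factors. The 250 bases before the RefSeq start of 3 class II genes that rose and of RT1-DMa, which did not pass the test, are printed 5′ to 3′ on the strand of the gene (build GRCr8, RT1-Da on the plus strand at chr20:4515165-4515414, the others on the minus strand at chr20:4560163-4560412 for RT1-Db1, chr20:4604119-4604368 for RT1-Bb and chr20:4712336-4712585 for RT1-DMa), with the letters TAGCAAC of the X box core and GATTGG, or its reverse complement CCAATC, of the Y box core in capitals.
RT1-Da: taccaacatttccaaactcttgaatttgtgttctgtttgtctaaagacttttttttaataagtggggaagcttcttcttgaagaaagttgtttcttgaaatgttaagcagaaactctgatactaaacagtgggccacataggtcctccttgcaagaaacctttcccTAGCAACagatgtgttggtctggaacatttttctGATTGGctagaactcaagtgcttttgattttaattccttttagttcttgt
RT1-Db1: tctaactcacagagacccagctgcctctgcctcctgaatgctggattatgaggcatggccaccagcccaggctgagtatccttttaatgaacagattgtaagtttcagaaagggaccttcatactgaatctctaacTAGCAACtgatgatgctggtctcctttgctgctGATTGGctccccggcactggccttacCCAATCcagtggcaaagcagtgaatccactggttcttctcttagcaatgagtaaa
RT1-Bb: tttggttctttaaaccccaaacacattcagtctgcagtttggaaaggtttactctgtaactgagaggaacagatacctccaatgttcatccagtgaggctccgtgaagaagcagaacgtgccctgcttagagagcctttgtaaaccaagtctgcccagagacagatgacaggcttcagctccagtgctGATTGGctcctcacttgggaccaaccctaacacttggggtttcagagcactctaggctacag
RT1-DMa: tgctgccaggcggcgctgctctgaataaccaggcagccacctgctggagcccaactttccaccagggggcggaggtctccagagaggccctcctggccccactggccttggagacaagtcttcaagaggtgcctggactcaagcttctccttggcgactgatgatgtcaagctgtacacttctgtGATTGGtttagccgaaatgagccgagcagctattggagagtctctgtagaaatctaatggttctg
Of the 11 class II genes listed, 9 had a promoter among the 33469 of RefSeq, and on either strand GATTGG stood in 8 of them, against 13.3% of all promoters. The same letters stood in 10 of 16 promoters of the cholesterol list and 10 of 20 of the MHC class I list. The longer Y box letters CTGATTGG stood in 6 (3.19% of all), TAGCAAC in 4 (2.88%) and both cores in 3 (0.442%), namely RT1-Da, RT1-Db1 and RT1-DOb. RT1-Bb, which rose, and RT1-DMa, which did not pass the test, both hold GATTGG and lack TAGCAAC in this window.

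RT1-Da, the alpha chain of the D molecule, stood at 4.50, 3.44, 4.85 and 5.35 in TBI replicates 1 to 4, at 0.24, 0.44, 0.79 and 1.42 in sham, and at 0.62, 2.87, 0.92 and 2.40 in naive. The TBI arrays lay above all sham and naive arrays, and naive replicates 2 and 4 lay above all sham arrays. The difference was 3.81 ± 0.53 (SE, n = 4 and 4), or 14.1-fold, with a limma adjusted p of 0.0236, and was 3.71 without TBI replicate 3 (adjusted p 0.0921). Cd74 behaved alike, at 6.56, 5.98, 6.92 and 7.55 in TBI and 2.04, 2.41, 3.33 and 3.77 in sham, with naive between 2.61 and 5.09. Its difference was 3.86 ± 0.55, or 14.6-fold (limma adjusted p 0.0236), and no TBI array reached down to the highest naive array.

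RT1-Db1, the beta chain of the D molecule, stood at 3.62, 3.41, 3.83 and 4.16 in TBI, 1.1, 1.17, 1.49 and 1.65 in sham and 1.34, 2.49, 1.60 and 1.83 in naive, so TBI lay above every other array. The difference of 2.40 ± 0.24, or 5.28-fold, had an adjusted p of 0.00601 and remained called without TBI replicate 3 (2.38, limma adjusted p 0.045). RT1-Db1 has a near-identical neighbour, RT1-Db2, which rose by 2.38, and cross-hybridisation between them could not be separated. RT1-Bb, the beta chain of the B molecule, stood at 2.39, 1.69, 2.84 and 2.17 in TBI against -1.32, -0.28, -1.29 and -0.79 in sham, where 3 of 4 arrays were well above background, and -0.06, 0.35, -0.53 and 0.34 in naive. Its difference of 3.20 ± 0.30, or 9.16-fold, had the smallest adjusted p of all probes tested (0.00595, limma), and it was the other probe called without TBI replicate 3 (3.01, adjusted p 0.0256).

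The differences of the peptide-loading genes were smaller. RT1-DMa, a chain of the DM molecule that exchanges peptides on class II, stood at 6.13, 5.87, 6.28 and 6.23 in TBI and 5.98, 5.89, 6.05 and 6.24 in sham, with overlapping groups and a difference of 0.09 ± 0.14 (limma adjusted p 0.729). Its partner RT1-DMb stood at 4.18, 4.21, 4.97 and 4.95 in TBI and 3.87, 3.80, 4.11 and 4.16 in sham. Here the groups did not overlap, as for the 3.53% of all genes with every TBI array above sham. The difference of 0.59 ± 0.21 missed the threshold (limma adjusted p 0.123). The probes for RT1-Ba, RT1-DOa, RT1-DOb and RT1-Ha were not well above background on any sham or TBI array, and that of Ciita, the master regulator of class II transcription, was on 2 TBI arrays and no sham array, so none of these 5 was tested. Of 11 class II genes listed, 6 were tested, 1 of them (RT1-Bb) through TBI alone, and 4 rose, with a median of 2.80 against -0.11 over all genes tested. With no filter on dim probes the median of all 11 lay 0.70 above that of all genes, against 2.91 for the 6 tested.

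**Figure D3:**
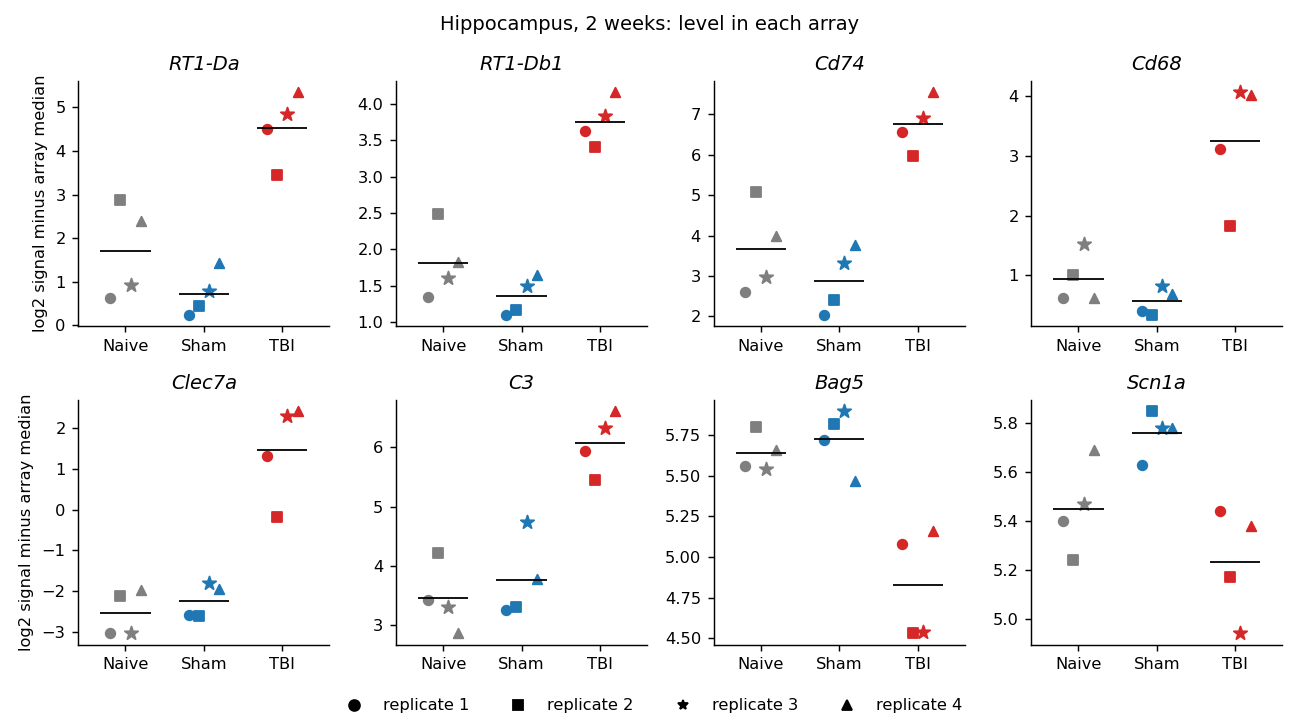
Level (log2 signal minus the array median, y axis) of 8 genes in the 4 naive (grey), 4 sham (blue) and 4 TBI (red) arrays; the marker shape is the replicate number and the bar is the group mean. For the 6 genes that rose the TBI arrays lie above all sham arrays with replicate 2 lowest, and for Bag5 and Scn1a they lie below them; the Scn1a call was lost with the 75th percentile as scale.

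Complement genes rose along the classical pathway, from its recognition molecule to C3. The pathway starts with C1q (chains C1qa, C1qb and C1qc) and its proteases C1r and C1s, continues through C2 and C4 and converges on C3, and is held back by the C1 inhibitor Serping1. C3 stood at 5.94, 5.45, 6.32 and 6.62 in TBI, 3.25, 3.30, 4.74 and 3.77 in sham and 3.43, 4.22, 3.30 and 2.86 in naive. Sham replicate 3 was the highest sham array and still lay below every TBI array. The difference was 2.32 ± 0.37, or 4.99-fold (limma adjusted p 0.0249), and 2.24 without TBI replicate 3. Serping1 stood at 5.02, 4.12, 5.70 and 5.61 in TBI against 3.06, 3.33, 3.58 and 3.23 in sham, a difference of 1.81 ± 0.32 (limma adjusted p 0.0289) with no overlap.

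Of 23 complement genes tested, 9 rose and none fell, with a median of 0.76. Upstream of C3 the differences were 0.99 for C1qa, 0.85 for C1qc, 1.21 for C1s and 1.47 for C2, all called, while C1qb (0.84, limma adjusted p 0.0637) and C1r (0.99, adjusted p 0.0565) were just beyond the threshold. C4a (1.28) and C4b (1.26) were called too, but they are near-identical copies whose signals cannot be kept apart. The receptor for the C3a fragment, C3ar1, rose by 1.23. The regulators Clu (0.20, adjusted p 0.259) and Cd55 (-0.55, adjusted p 0.193) and the alternative pathway protease Cfb (0.59, adjusted p 0.129) did not pass the limma test. For Cd55 all TBI arrays, at 1.37, 1.34, 0.64 and 0.97, lay below all sham arrays, at 1.44, 1.57, 1.78 and 1.72. Such an order held for 17.1% of all genes, and for 6.61% with the 75th percentile as scale.

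Markers of microglia and macrophages rose broadly: 18 of 27 tested, 4 of them through TBI alone, were called higher and none lower, with a median of 0.80. Cd68, a lysosomal glycoprotein of phagocytes, changed most and stood at 3.11, 1.83, 4.07 and 4.03 in TBI, 0.41, 0.34, 0.82 and 0.69 in sham and 0.62, 1.00, 1.53 and 0.63 in naive. TBI replicate 2 was well under the other TBI arrays but above every sham and naive array. The difference of 2.70 ± 0.42, or 6.48-fold (limma adjusted p 0.0249), became 2.43 without TBI replicate 3. Irf8, a transcription factor of the myeloid lineage (1.65), Ptprc, the pan-leukocyte phosphatase CD45 (1.46), and Cd37, a leukocyte tetraspanin (1.39), were next.

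Genes typical of resting microglia are given by value. Cd68 was picked as the largest rise of the list, so smaller values for the others were fixed by that choice. Tmem119 rose by 0.69, Gpr34 by 0.70, Cx3cr1 by 0.55 and Csf1r, the receptor for the growth factors microglia depend on, by 0.95. P2ry12 stood at 5.77, 5.09, 6.21 and 6.31 in TBI and 5.58, 5.28, 5.47 and 5.52 in sham, with replicate 2 below and the other TBI arrays above all sham arrays. Its difference of 0.38 ± 0.23 (limma adjusted p 0.316) did not pass, nor did that of P2ry13 (0.25, adjusted p 0.373). The lipid-sensing receptor Trem2 rose by 1.32 and its signalling partner Tyrobp by 1.30, Aif1 (Iba1) by 0.72, Itgam (CD11b) by 1.26 and Adgre1 (F4/80) by 1.16. Mrc1, a marker of macrophages along vessels and meninges, was well above background on 2 sham and 4 TBI arrays and did not pass (0.74, limma adjusted p 0.163). The summed level of the 28 markers on the array, relative to the array median, was 618 to 754 in sham and 848 to 1640 in TBI.

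Clec7a (Dectin-1), a pattern receptor induced in microglia around damage, was not well above background on any sham array and was on all 4 TBI arrays, at 1.31, -0.18, 2.30 and 2.43. On the processed signal it was at least 7.06-fold higher in TBI (limma adjusted p 0.0236), and its log2 difference was as low as 1.77 over the alternative settings. This bound sets the mean of the TBI arrays against a mean over the sham arrays. Each sham array enters with its own signal or the lowest signal that counted as above background on it, whichever was higher. Of 23 tested genes of the disease-associated microglia state, 5 of them through TBI alone, 8 rose and none fell, with a median of 0.51. Lgals3 (galectin-3) stood at 3.51, 2.80, 5.56 and 4.50 in TBI and 1.95, 1.16, 1.90 and 1.95 in sham, highest in TBI replicate 3 and without overlap. Its difference of 2.35 ± 0.48 (limma adjusted p 0.0384) dropped to 1.86 without that array. Gpnmb, a lysosomal membrane protein, rose by 2.02 (1.71 without TBI replicate 3) and the protease Ctsz by 1.34.

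Spp1 (osteopontin) differed widely between the TBI arrays. It stood at 1.85, -0.52, 4.36 and 3.33 in TBI and -1.49, -0.44, -1.13 and -0.88 in sham, where 2 arrays were well above background. TBI replicate 2 lay within the sham range and replicate 3 far above it. The difference of 3.24 ± 0.86 was among the larger ones and did not pass the limma test (adjusted p 0.0659).

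Chemokines and surface receptors of phagocytes followed. Ccl3, a chemokine that attracts monocytes, stood at 0.81, -0.72, 1.73 and 1.4 in TBI and -1.76, -2.43, -1.85 and -1.65 in sham, where 1 array was well above background, a difference of 2.73 ± 0.43 without overlap (limma adjusted p 0.0249). Ccl4, its close relative, was well above background on no sham array and on every TBI array. On the processed signal it was at least 2.85-fold higher (limma adjusted p 0.0249). Its log2 difference was as low as 0.88 over the alternative settings. Both were among 13 chemokine genes tested, 4 of them through TBI alone, of which none was called lower and no other was called higher. With the 75th percentile as scale 3 were called higher. At an unadjusted p under 0.05 (limma) 4 were higher and 1 lower, where 5.59% of all genes were higher and 22.7% lower. Ccl2, well above background on 3 TBI arrays and no sham array, was not tested. It stood at 1.63, -1.43, 0.85 and 0.29 in TBI. By the same rule it was at least 3.21-fold higher, in a mean that includes the TBI array not above background. The probes for Il1b and Il6 were not tested either, with 2 and 0 TBI arrays well above background.

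Of 17 Fc receptor and phagocyte oxidase genes tested, 5 of them through TBI alone, 9 rose, with a median of 1.07. Fcgr2b, the inhibitory receptor for immunoglobulin G, stood at 3.69, 3.38, 4.65 and 4.76 in TBI and 1.67, 1.82, 2.03 and 2.65 in sham, a difference of 2.08 ± 0.31 (limma adjusted p 0.0249). Its lowest TBI array was above its highest sham array. The oxidase subunits Ncf1 (1.47) and Cyba (1.11), and Rac2 (1.36), the GTPase that activates the enzyme in blood cells, were called as well. Cd22, an inhibitory receptor that binds sialic acid, stood at 2.21, 1.31, 2.66 and 2.97 in TBI and -0.24, -1.46, -1.57 and -1.19 in sham, 3 of them well above background, a difference of 3.40 ± 0.40 (limma adjusted p 0.0236). F10, coagulation factor X, was well above background on 1 sham array and rose by 3.00 ± 0.45 (limma adjusted p 0.0249). The size of such differences from sham levels near background depended on the background correction, and with normexp it was 1.55 for F10, 1.22 for Ccl3, 2.08 for Cd22 and 1.98 for RT1-Bb, each still called.

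Pattern recognition and interferon genes were described by their lists. Of 30 genes of the Toll-like receptor, TNF, IL-1 and NF-kB pathways tested, 10 of them through TBI alone, 9 rose, among them the receptors Tlr1 (1.60), Tlr7 (1.13) and Tlr4 (1.03), the inflammasome sensor Nlrp3 (1.12) and the survival factor Bcl2a1 (1.18). With normexp background correction the differences of Tlr1, Tlr4 and Bcl2a1 were 0.64, 0.39 and 0.46, and that of Tlr4 was not called. Of 29 interferon response genes, 3 of them through TBI alone, 1 was called, Ifi44 (0.67), although their median was 0.62 and 20 had an unadjusted p under 0.05, against 631 of all genes higher at that threshold (5.59%). Cxcl10, an interferon-induced chemokine, stood at 0.58, -0.46, 1.39 and 1.46 in TBI and -2.18, -0.83, -0.31 and -0.64 in sham. TBI replicate 2 lay inside the sham range, and the difference of 1.73 ± 0.46 did not pass (limma adjusted p 0.0648). Of 20 genes of MHC class I and peptide transport 2 rose, the transporter Tap1 (1.06) and RT1-CE16 (0.79), with a median of 0.29. With the 75th percentile as scale 13 of the pattern recognition, 4 of the interferon and 6 of the class I genes rose.

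**Figure D4:**
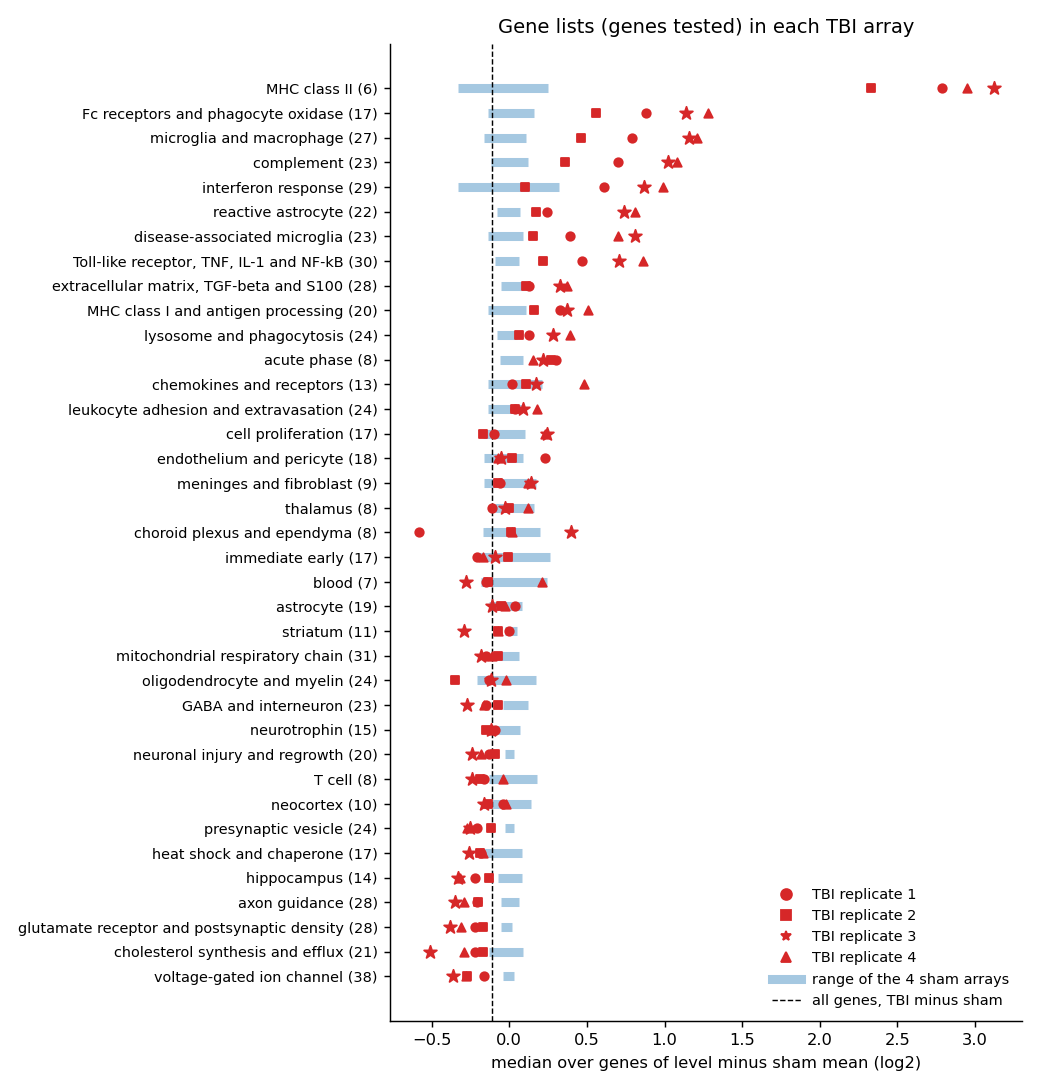
Median over the tested genes of each list (number in brackets) of the level minus the sham mean, in log2 units (x axis), for TBI replicates 1 to 4 (red shapes) and as the range of the 4 sham arrays (blue bars); the dashed line is the median difference of all genes. MHC class II lies between 2.33 and 3.12 in the TBI arrays, the phagocyte and complement lists lie above the sham bars in every TBI array, and the ion channel list lies below the sham bar in every TBI array.

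Among lysosome, matrix and glial genes a few were called. Of 24 lysosome and phagocytosis genes 3 rose, the proteases Ctsc (0.95) and Ctsh (0.56) and the cholesterol carrier Npc2 (0.97). Of 28 genes of extracellular matrix, TGF-beta and S100 proteins Tgfb1, a cytokine that restrains inflammation, was the one called (1.30, limma adjusted p 0.0249). Of 22 reactive astrocyte genes tested, 4 of them through TBI alone, 3 rose, the intermediate filament Vim (1.21), Aspg (1.64) and Serping1, which is also on the complement list. Gfap, the filament by which reactive astrocytes are usually recognised, stood at 6.93, 6.49, 7.24 and 8.28 in TBI, 7.07, 7.63, 6.26 and 6.42 in sham and 7.40, 7.17, 7.45 and 5.73 in naive. The groups overlapped throughout, and the difference was 0.39 ± 0.47 (limma adjusted p 0.63). None of 19 astrocyte genes and none of 24 oligodendrocyte and myelin genes was called, with 2 (1 higher, 1 lower) and 5 (all lower) at an unadjusted p under 0.05, where 5.59% of all genes were higher and 22.7% lower; values for bright members were -0.15 for Aldoc and -0.20 for Mbp.

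Markers of other cells that a dissection could hold were read beside these rises, and their part in them was not tested. Of the T cell markers 8 of 26 on the array could be tested and none was called. At an unadjusted p under 0.05 (limma) 1 was higher and 1 lower, where 5.59% of all genes were higher and 22.7% lower. Cd3g, Cd247, Cd2 and Cd8a were well above background on no TBI array. The summed T cell level was 165 to 194 in sham and 156 to 178 in TBI. The neutrophil sum was 9.07 to 15.1 in sham and 9.79 to 12.9 in TBI, with 7 of 13 markers above background on no array. None of 4 neutrophil markers tested was called, with 1 higher at that unadjusted p. Both sums are of linear levels and so weighted to their bright members. Of the B cell markers Cd79b, Blk and Mzb1 were above background on no TBI array, whereas Cd22 and the adaptor Blnk (1.25) rose, and the sum was 10.5 to 17.4 in sham and 16.4 to 31.5 in TBI. The sum of 9 blood markers, hemoglobins and other genes of red cells, was 2080 to 2810 in sham, 1980 to 2690 in TBI and 3540 to 4930 in naive. The sum of choroid plexus markers was 471 in TBI replicate 3, against 56.6 as the lowest and 84.1 as the median of the TBI arrays and 80.2 to 274 in sham. The sum is of linear levels and so weighted to Ttr, a secreted hormone carrier of that tissue. Ttr stood at 8.67 in that array against 5.06, 6.04 and 3.93 in the other TBI arrays. The median of the tested markers over the sham mean was -0.58, 0.01 and 0.02 in TBI replicates 1, 2 and 4 and 0.40 in replicate 3. The part of choroid plexus tissue in the values of that array was not tested.

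The genes that fell were led by Bag5, a co-chaperone of Hsp70. It stood at 5.08, 4.53, 4.54 and 5.16 in TBI, 5.72, 5.82, 5.90 and 5.47 in sham and 5.56, 5.80, 5.54 and 5.66 in naive, so TBI lay below all other arrays. The difference was -0.90 ± 0.15, or 1.86-fold lower (limma adjusted p 0.0253), and -0.80 without TBI replicate 3 and with the 75th percentile as scale. Pank1, the first enzyme of coenzyme A synthesis, stood at 2.71, 2.48, 2.58 and 2.53 in TBI, 3.20, 3.39, 3.14 and 3.23 in sham and 2.82, 2.92, 2.66 and 2.90 in naive. Here sham was the group that stood above the rest, and the difference was -0.67 ± 0.08 (limma adjusted p 0.0236). Tug1, a long noncoding RNA, fell by 0.62, and its TBI arrays, at 3.73, 3.47, 3.63 and 3.68, lay below the sham arrays, at 4.09, 4.41, 4.26 and 4.23.

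Other falls were called with both scales as well. Rtn4rl1, a Nogo receptor family member that limits axon growth, stood at 1.4, 1.64, 1.34 and 1.55 in TBI, 2.17, 2.08, 2.16 and 1.90 in sham and 0.65, 0.41, 0.75 and 0.60 in naive. The 3 groups did not overlap, with TBI between naive and sham: TBI minus sham was -0.59 ± 0.10 (limma adjusted p 0.0249), TBI minus naive 0.88 (adjusted p 0.00048) and sham minus naive 1.47 (adjusted p 2.2e-05). Cttnbp2, a regulator of dendritic spines, had a similar order, with -0.54, 0.23 (adjusted p 0.14) and 0.76 (adjusted p 0.00096) for the same comparisons, and so did the ubiquitin ligase Rnf145, with -0.50, 0.12 (adjusted p 0.38) and 0.62 (adjusted p 0.0015). These comparisons share arrays, and at the whole-array level TBI against naive called 13% of probes and sham against naive 8.93%. Sema6d, a semaphorin, fell by 0.58, Palm3 by 0.56, the replication kinase Cdc7 by 0.55 and the condensin subunit Ncapd3 by 0.53.

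Some lists of neuronal genes had medians below the -0.11 of all genes, and their calls depended on the scale. Of 38 voltage-gated ion channel genes tested 3 fell, among them the sodium channels Scn1a (-0.53) and Scn2a (-0.32), with a median of -0.31. Over all genes 1.36% fell. At an unadjusted p under 0.05 (limma) 20 of the 38 were lower, against 22.7% of all genes. Scn1a stood at 5.44, 5.17, 4.94 and 5.38 in TBI, 5.63, 5.85, 5.78 and 5.78 in sham and 5.40, 5.24, 5.47 and 5.69 in naive, so TBI lay below sham but not below naive. Of 28 glutamate receptor and postsynaptic genes 3 fell, the AMPA receptor subunits Gria2 (-0.44) and Gria3 (-0.32) and the scaffold Dlgap1 (-0.36), with a median of -0.29. At that unadjusted p 13 of the 28 were lower. The vesicle protein Vamp1 (-0.38), the guidance receptor Robo1 (-0.49), the neuronal enolase Eno2 (-0.31) and the sorting receptor Sort1 (-0.39), whose tested probes differed in sign, were the calls among lower genes of their lists. With the 75th percentile as scale none of these named genes and no other gene of the channel and glutamate lists was called. The medians of these 2 lists were then -0.21 and -0.19, against -0.01 over all genes. Other neuronal lists lay at about the level of all genes, with medians of -0.14 for the GABA and interneuron genes (none of 23 called), the neuronal injury and regrowth genes and the neurotrophin genes. Of the 20 injury and regrowth genes tested 1 was called higher with both scales, Atf3 (1.74). Its difference was as low as 0.78 over the alternative settings. None of 14 hippocampus marker genes tested was called (7 at an unadjusted p under 0.05, all lower, against 22.7% of all genes lower at that threshold).

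Of 21 cholesterol genes tested 5 fell and none rose, with a median of -0.29, where 1.36% of all genes fell. At an unadjusted p under 0.05 (limma) 10 were lower, against 22.7% of all genes. With the 75th percentile as scale 1 was called. Cyp51, which demethylates lanosterol, stood at 6.80, 6.79, 6.58 and 6.62 in TBI, 7.06, 7.04, 7.20 and 7.12 in sham and 7.21, 7.22, 7.19 and 7.15 in naive. TBI lay below every other array, and the difference of -0.41 ± 0.07 was called with both scales (limma adjusted p 0.0249 and 0.0439). Fdft1, squalene synthase (-0.46), Hmgcs1 (-0.43) and Srebf2, the transcription factor that controls the pathway (-0.43), were called with the median of the array alone. The comparison with naive shares the TBI arrays, sets them against another slide and called 13% of all probes. There the same genes stood lower by 0.50 for Cyp51, 0.75 for Fdft1, 0.70 for Hmgcs1 and 0.48 for Srebf2, each called (limma adjusted p 0.002, 0.00067, 0.0021 and 0.0099).

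Of 35 genes that the study names for these or other intervals, a choice made on these samples and so no independent evidence, 31 were tested, 9 of them through TBI alone, and 17 rose. Those without a call included Cd44 (0.89, limma adjusted p 0.0625), the integrin chain Itgb2 (1.44, adjusted p 0.0638) and the neurotrophin Bdnf, which stood at 3.07, 3.43, 2.48 and 3.01 in TBI and 3.23, 3.62, 3.34 and 3.25 in sham (-0.36, adjusted p 0.296).

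The difference between TBI and sham at 2 weeks was set against that at later intervals with an interaction term, using the hippocampus arrays of 6 months and 1 year of the same design. Against 1 year, 215 of 25252 probes differed (0.851%), 190 of them higher and 25 lower at 2 weeks. RT1-Da had a difference between TBI and sham of 3.81 at 2 weeks and -0.79 at 1 year, an interaction of 4.60 ± 1.00 (limma adjusted p 0.0309). Cd74 (4.45 ± 0.93, adjusted p 0.0244) followed. The interaction of Clec7a was called too (limma adjusted p 0.00739), without a measured size, since no sham array at 2 weeks was above background. In the opposite direction stood Fa2h, a myelin lipid enzyme, and Wfs1, both at -0.84 (limma adjusted p 0.0484 and 0.0327), and Scn1a at -0.71 (adjusted p 0.0472), of which Wfs1 and Fa2h were not called at 2 weeks itself. Of the microglia and macrophage genes, 16 of 26 tested had an interaction with 1 year called higher, as had 6 of 22 complement and 4 of 6 class II genes, beside 142 of 11167 over all genes. These counts are of genes whose probe also passed the filter on the 2-week arrays.

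Against 6 months no probe had a called interaction (limma, smallest adjusted p 0.0761, 1658 probes at an unadjusted p under 0.05). For class II the medians were 2.80, 0.75 and -0.40 at 2 weeks, 6 months and 1 year. For microglia and macrophages they were 0.80, 0.37 and -0.29, and for complement 0.76, 0.28 and -0.13. Some other lists had no such order, such as chemokines at 0.18, 0.28 and -0.26 and cholesterol genes at -0.29, 0.01 and -0.02. Over all genes the medians were -0.11, 0.03 and -0.03. All these medians are of genes that passed the filter on the 2-week arrays, some through TBI alone. Part of a larger value at 2 weeks may follow from that choice, which was not tested. At 2 weeks the cortex gave no called interaction with the hippocampus (smallest adjusted p 0.433, 590 probes at an unadjusted p under 0.05). There the median difference between TBI and sham over all genes was 1.02, against -0.11 in the hippocampus, so cortex differences are not on a like scale; that of RT1-Da was 4.05 and that of Cd68 was 4.26.

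**Figure D5:**
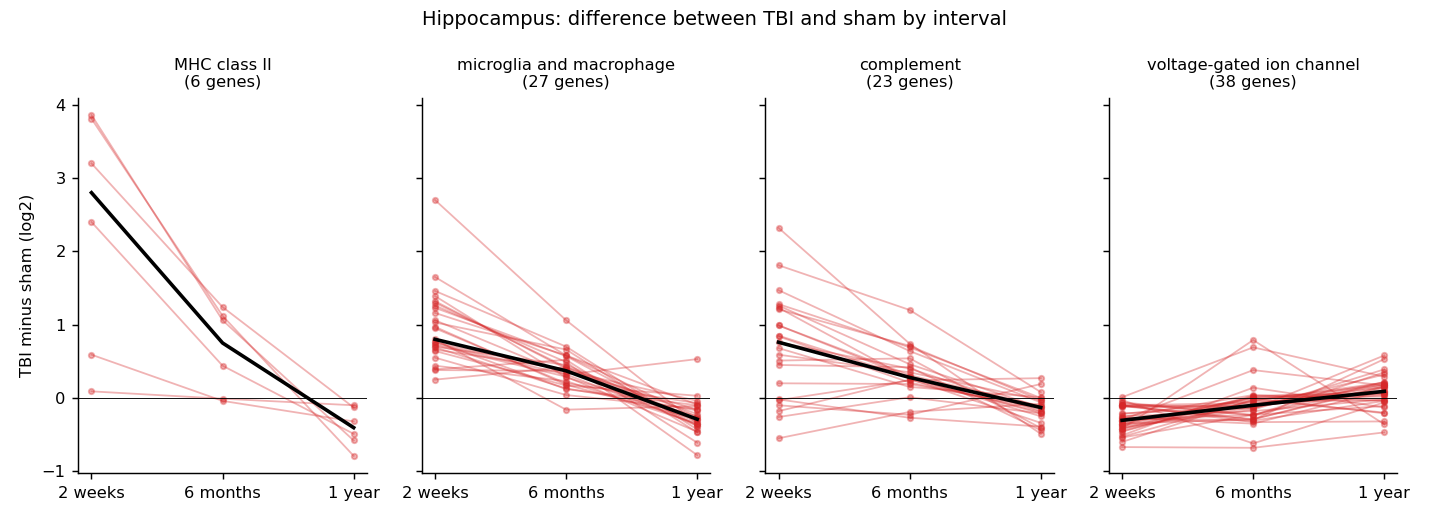
Difference between TBI and sham in the hippocampus (log2, y axis) at 2 weeks, 6 months and 1 year for the genes of 4 lists; thin red lines are genes and the black line is the median. The genes are those that passed the filter on the 2-week arrays. The class II median goes from 2.80 through 0.75 to -0.40, and the ion channel median from -0.31 through -0.10 to 0.09.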

How the data were processed

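Hippocampal RNA of 4 TBI, 4 sham and 4 naive rats at 2 weeks was measured on 1-colour Agilent arrays. Per the file headers, the authors extracted signals with Feature Extraction 11.5.1.1; the deposited intensity is its processed signal, with no scaling between arrays named there. The deposited table of ratios holds, as comparison with the scanner signals showed, the processed signal divided by a constant near the 75th percentile of the array (lowest value 0.01). The other columns used hold flags, not measurements. The study's methods normalize to the array median and call genes by fold change and unadjusted p.

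Here flagged outlier spots were left out (217 to 1004 of 58717 per array), spots of a probe averaged, and log2 intensity taken minus the array median; the number of arrays limits the precision, and no array had a saturated probe. No 2 arrays held the same values (at least 45323 of 45598 probes differed). Probes were named through RefSeq accessions: 21109 probes (46.3%) gave 16581 genes, and the rest are unnamed here. A gene is read from the tested probe with the highest mean over TBI and sham. limma 3.58.1 in R 4.3.3 was fitted to the 12 arrays (24 for an interaction) and adjusted by Benjamini-Hochberg over all probes tested. The script was tested on simulated data.

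Named genes were the 10 largest rises and falls called with both the median and the 75th percentile and without overlap of TBI and sham, up to 4 called genes of each of 39 lists (the 2 brightest where none was called), any gene of the class II, complement and microglia lists, genes the study names, and up to 3 interactions each way. A few genes that the rule names are not reported here. The members and lists were chosen with earlier results of these data known. Alternatives were other scalings (75th percentile, quantile, the deposited ratios), normexp on the median signals (no mean signal was in the files), other filters, fits of only the 2 groups, a replicate block, array weights, a trended and robust variance, other call rules and each array left out. Arrays of other tissues, intervals and designs were not used beyond the interactions and the tissue check.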

Additional observations from a re-analysis of the deposited data

Results flagged for a closer look

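The difference between TBI and sham was larger or smaller at 2 weeks than at 1 year, by the interaction term of the limma fit, for 215 probes, and for the following named genes; each value is the difference at 2 weeks minus that at 1 year on the log2 scale, and the interaction with 6 months was called for none of them. For class II genes it was 4.60 for RT1-Da, 4.45 for Cd74, 3.32 for RT1-Bb and 2.89 for RT1-Db1. For complement genes it was 2.81 for C3, 1.57 for C3ar1, 1.53 for C2, 1.39 for C4b, 1.28 for C4a and 1.24 for C1qa. Among markers of microglia and macrophages and their partners it was 3.04 for Cd68, 2.03 for Itgam, 1.89 for Ptprc, 1.74 for Irf8, 1.65 for Cd37, 1.65 for Trem2, 1.61 for Ly86, 1.59 for Tyrobp, 1.50 for Cd53, 1.43 for Adgre1, 1.42 for Fcer1g, 1.26 for Laptm5, 1.18 for Aif1, 1.02 for Csf1r, 0.99 for Gpr34 and 0.86 for Tmem119. Among phagocyte receptors, chemokines and secreted factors it was 4.46 for Clec7a, 3.65 for Cd22, 3.65 for F10, 3.51 for Ccl3, 3.03 for Ccl4, 2.55 for Lgals3, 2.26 for Fcgr2b, 2.13 for Gpnmb and 1.42 for Tgfb1. Of these, Clec7a and Ccl4 were well above background on no sham array at 2 weeks and F10 and Ccl3 on 1, so their values are fitted numbers and no measured size. For oxidase, signalling and pattern recognition genes it was 2.03 for Rac2, 2.15 for Tlr1, 1.93 for Ncf1, 1.41 for Nlrp3, 1.4 for Tlr4, 1.33 for Cyba, 1.25 for Arhgdib, 1.30 for Rhoh and 1.32 for Blnk. For lysosome, stress and interferon genes it was 2.34 for Atf3, 1.48 for Ctsz, 1.39 for Pld4, 1.38 for Ifi44, 1.21 for Npc2, 1.00 for Hmox1 and 0.70 for Ctsh. In the opposite direction it was -0.84 for Fa2h, -0.84 for Wfs1, -0.71 for Scn1a and -0.56 for Fdft1. The 24 arrays of this fit lay on 4 slides with each group on 1 of them, so interval and slide cannot be told apart.

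Of 243 groups of 4 arrays examined, 8 had an array whose gap to its nearest neighbour took more of the range than Dixon's critical value, which chance gives in about 1 group in 20. Sham replicate 3 had fewer probes above background than the other sham arrays (gap 0.882 of the range), and was high for Cd86 (0.934) and low for Eng (0.833). Sham replicate 1 was low for Cd44 (0.905), Vim (0.885) and RT1-CE16 (0.841) and high for Spi1 (0.833). Sham replicate 2 was low for Lgals3 (0.937). Without sham replicate 3 the fit called 4 probes, without replicate 1 it called 909 and without replicate 2 it called 3.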

How the results depend on the processing

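All 568 probes called between TBI and sham kept their direction in each of the 22 settings of scaling, filter, covariate and arrays compared. Of them 482 were tested with probes above background in every array. The settings share the arrays on which the probes were chosen, so the kept direction is no independent check. The number called moved between 2 and 3615. It was 401 with quantile normalization, 378 with normexp, 4 with no filter, 946 with probes above background in every array, 5 with only the 2 groups fitted (the value within the shared slide), 3615 with array weights, 1411 with a trended and robust variance, 1130 at a fold of 1.4 and an unadjusted p under 0.05, and 510 at an unadjusted p under 0.001. Higher calls were 384 with the 75th percentile, 380 with the deposited ratios, 2 with no filter, 4 with only the 2 groups, 696 with array weights and 412 with the trended variance. Lower calls were 70 with the 75th percentile, 74 with quantile, 77 with the deposited ratios, 16 with normexp, 2 with no filter, 680 above background throughout, 1 with only the 2 groups, 2919 with array weights and 999 with the trended variance. With 1 array left out the calls ranged from 2 to 1073, the higher from 2 to 582 and the lower from 0 to 697; leaving out replicate 3 of both TBI and sham, chosen after seeing the data, left 0 calls (0 higher, 0 lower) with 3034 probes at an unadjusted p under 0.05. TBI against naive called 3214 probes: 1660 with quantile, 1336 with normexp, 740 with no filter, 1969 with only the 2 groups and 1451 to 3467 with 1 array left out. Sham against naive called 2090: 644 with no filter, 1216 with only the 2 groups, 3287 with array weights and 1131 to 2123 with 1 array left out. The interaction with 6 months gave 1 call with the 75th percentile, 10 with quantile, 1 with the deposited ratios and 0 to 0 with 1 array left out; that with 1 year gave 332 with quantile and 83 to 496 with 1 array left out, fewest without TBI replicate 3 and most without TBI replicate 2; that with the cortex gave 0 to 0. Except where the setting itself changes the probes or arrays, the cause was not tested.

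Same-numbered TBI and sham arrays correlated at 0.12, 0.16, -0.01 and 0.05 in their deviations from the group means, and replicates 3 and 4 correlated best with each other's number, so the numbers were not taken to pair the arrays. The replicate block gave 24 calls (21 higher, 3 lower) for TBI against sham, 2082 for TBI against naive, 1524 for sham against naive, 0 and 242 for the interactions with 6 months and 1 year and 0 for the cortex. The slide as a random block was not run, since each group lies on 1 slide.

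For 91 named called genes, 1985 checks kept the direction and 921 lost the call, 602 of these with 1 array left out. Among named genes without a call 44 checks gained one, and 1 changed sign: Wfs1, at 0.02 with quantile normalization. Of 897 checks of list medians 23 moved by more than the spread. Probes near background in sham give a lower bound only, which holds for the processed signal.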

Other observations

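Genes outside every list, chosen after their values were seen, also rose. Rab32, a GTPase of lysosome-related organelles, was well above background on 1 sham array and was higher by 2.34 ± 0.50 (limma adjusted p 0.0422). Clec12a, an inhibitory lectin receptor of myeloid cells, rose by 2.20 ± 0.39 (adjusted p 0.0289) and St14, the membrane protease matriptase, by 1.96 ± 0.36 (adjusted p 0.0303). Apobec1, a cytidine deaminase, rose by 1.68, the interferon-inducible GTPase Ifi47 by 1.64, the adaptor Lat2 by 1.63 and the pyrin gene Mefv, read from 2 sham arrays above background, by 1.61 (limma adjusted p 0.0249, 0.0249, 0.0263 and 0.0299).

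Receptors and ligands of interest for pharmacology or immune regulation were among the same rises. Cnr2, the cannabinoid receptor of immune cells, rose by 1.38 ± 0.22 (limma adjusted p 0.0249). Tnfsf13b, the B cell survival factor BAFF, rose by 1.32, Havcr2, the checkpoint receptor Tim-3, by 1.25, the costimulatory receptor Cd40 by 1.04, the phosphatase Ptpn6 by 1.24 and Ripk3, the kinase of necroptosis, by 1.29. The adjusted p values of these last 5 genes ran from 0.0301 for Havcr2 to 0.0458 for Tnfsf13b. Without TBI replicate 3 none of these genes was called, as was the case for all but 2 probes.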
